A study of Mus musculus with 12 samples.

Results

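Genes of the proteasome, the protease complex that degrades ubiquitin-tagged proteins, were examined in CD4+ T cells without YFP, which marks FOXP3 expression in this strain. Members were all genes whose symbol is Psm followed by 1 letter from a to g and a number, and whose reads in the 12 libraries added up to 20 or more. Of 48 symbols of this form, 46 passed, among 26608 genes listed, and all 46 entered the tests on 16035 genes. The other two, Psma8 with 9 reads and Psmb11 with 1 read over all libraries, encode the subunits of the testis and thymus forms. The cells were sorted from spleen combined with cervical and inguinal lymph nodes of mice aged 14 weeks, and 1 library was made from each mouse. WT were Foxp3Cre WT mice (n = 4), and DKO-moderate (n = 4) and DKO-severe (n = 4) were Foxp3-Cre Tet2/3 fl/fl mice, which differed in the number of cells in spleen and lymph nodes. All groups carried the Cre fused to YFP at Foxp3, and only the DKO groups carried the floxed Tet2 and Tet3 alleles. Foxp3-Cre drives deletion in FOXP3-expressing regulatory T (Treg) cells and is regarded as leaky, so the sorted cells of DKO mice may mix former Treg cells with conventional CD4+ T cells.

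The proteasome is a barrel of stacked alpha and beta rings, the 20S core, closed at its ends by regulatory particles. Its proteolytic sites lie in 3 beta subunits, encoded by Psmb5, Psmb6, and Psmb7. In lymphocytes and in cells exposed to interferon these are replaced by Psmb8, Psmb9, and Psmb10, which gives the immunoproteasome, a form that trims peptides for MHC class I. The 19S particle binds ubiquitin, unfolds substrates with a ring of ATPases (Psmc genes), and removes ubiquitin in its lid, while Psme1 and Psme2 form another, interferon-inducible cap.

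Reads on genes ranged from 29254260 to 42133536 per library. Levels are given as CPM, read counts scaled to a fixed library total with TMM factors, which align libraries by the bulk of their genes. Differences are log2 fold changes from edgeR's quasi-likelihood test, fitted to all 12 libraries and adjusted over 16035 genes (Benjamini-Hochberg), with a threshold of 0.05 on the adjusted p. The T cell list was high in every library (5089 to 6576 CPM summed over 10 genes). Tet3 was counted at 167 to 210.4 CPM in WT, 90.3 to 185 CPM in DKO-moderate, and 87.8 to 102 CPM in DKO-severe, and Tet2 at 43.3 to 62.2, 34.8 to 57.8, and 56.7 to 65.8 CPM, from reads over whole genes, which do not single out the deleted exons. For Tet3, DKO-moderate 1 and 3 (168 and 185 CPM) lay within the range of WT, and all other DKO libraries lay below it. Markers of other cells differed between the groups, but not all in 1 direction. The dendritic cell list (7 genes) summed to 46.8 to 63.0 CPM in WT and 44.1 to 47.25 CPM in DKO-severe. The 2 CD8 T cell genes summed to 16.8 to 26.7 and 1.03 to 13.15 CPM, and the erythroid list to 0.258 to 15.55 and 9.14 to 34.9 CPM. The 12 neutrophil genes summed to 9.80 to 15.0 CPM in WT, with Ly6g and Elane at 0 in all 4 libraries, to 13.4 to 36.1 CPM in DKO-moderate, and to 2303, 862, 45.4, and 27.4 CPM in DKO-severe 1 to 4, and 12 of 12 passed as higher than WT in DKO-severe. The 10 B cell genes, none at 0 in a whole group, summed to 10.1 to 241 CPM in WT (highest in WT 3), 24.0 to 49.8 CPM in DKO-moderate, and 73.2 to 432 CPM in DKO-severe, with 1 of 10 passing as higher than WT. The plasma cell list (7 genes, among them Xbp1 and Irf4, which T cells also express) summed to 85.3 to 197 CPM in WT and 475 to 661 CPM in DKO-severe, where 4 genes passed as higher, and the 8 monocyte and macrophage genes to 22 to 217 CPM and 144 to 571 CPM, also with 4 higher. The 12 proliferation genes summed to 444 to 519 CPM in WT, 676 to 1004 CPM in DKO-moderate, and 995 to 2087 CPM in DKO-severe, with 12 passing as higher than WT in DKO-severe and 10 in DKO-moderate. The 8 naive T cell genes summed to 5316 to 6009, 2824 to 4528, and 1816 to 2467 CPM, with 7 passing as lower than WT in DKO-severe and 4 in DKO-moderate. Y-linked transcripts summed to 0.571 CPM or less in WT 2, DKO-moderate 2, DKO-moderate 4, and DKO-severe 3 and to 369.8 CPM or more in the other libraries. The part of these cells in the levels of the proteasome genes was not tested. Fits with terms for the neutrophil and B cell lists are given with the counts. They cannot tell the lists from the groups, since the neutrophil sums of WT and DKO-severe did not overlap. The 46 members took 0.468% to 0.515% of reads in WT, 0.531% to 0.595% in DKO-severe, and 0.496% to 0.729% in DKO-moderate. After TMM scaling the sums of WT (4922 to 5453 CPM) and DKO-severe (4872 to 5649 CPM) overlapped, and those of DKO-moderate were 5101 to 7139 CPM. The highest value came from DKO-moderate 4, which stood apart from every other library in these genes and is described with its group.

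In DKO-severe cells, 9 of the 46 genes were higher than in WT and 3 were lower. This is 26.1% of the members, against 52.6% of all genes tested in this comparison (26.6% higher, 25.9% lower). The median log2 fold change was 0.088 over the members and -0.0054 over all genes tested. The genes that rose belonged to the rings, base, and lid of the complex, whereas those that fell were 2 immunoproteasome catalytic subunits and 1 assembly chaperone. By CPM, every DKO-severe library exceeded every WT library for 14 members and lay below every WT library for 7, against 24.6% and 27.3% of all genes tested. Without DKO-moderate 4, which does not belong to this comparison but enters its estimate of spread, 17 members were higher and 5 lower. In that fit 9006 of all genes passed, against 8428 with this library included. The member counts thus changed more with this library than the count over all genes did. With WT 3, DKO-severe 1, and DKO-severe 2 left out together, the libraries with the highest B cell or neutrophil sums, 5 members were higher (Psma1, Psma4, Psmd1, Psmd2, and Psmd13) and 1, Psmg4, was lower. In that fit 6679 of all genes passed. With 1 term for the neutrophil list and 1 for the B cell list in the fit, each its mean log2 CPM per library, 0 members and 2970 of all genes passed, where 8428 passed without them. In that fit the 9 genes that rose had log2 fold changes of 0.15 to 0.38, where 0.23 to 0.47 were found without the terms, and the SE of the 12 genes was 0.14 to 0.25 in place of 0.07 to 0.13. The 3 that fell were then at -0.75, SE 0.25, adjusted p = 0.0627 for Psmg4, -0.34, SE 0.21, adjusted p = 0.292 for Psmb10, and -0.30, SE 0.22, adjusted p = 0.368 for Psmb9 (log2 fold changes, edgeR). With library size alone as scaling, the median over all genes shifted to 0.18, 66.5% of all calls were higher where 50.7% were with TMM, and 21 members were higher and 1 was lower.

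**Figure D1:**
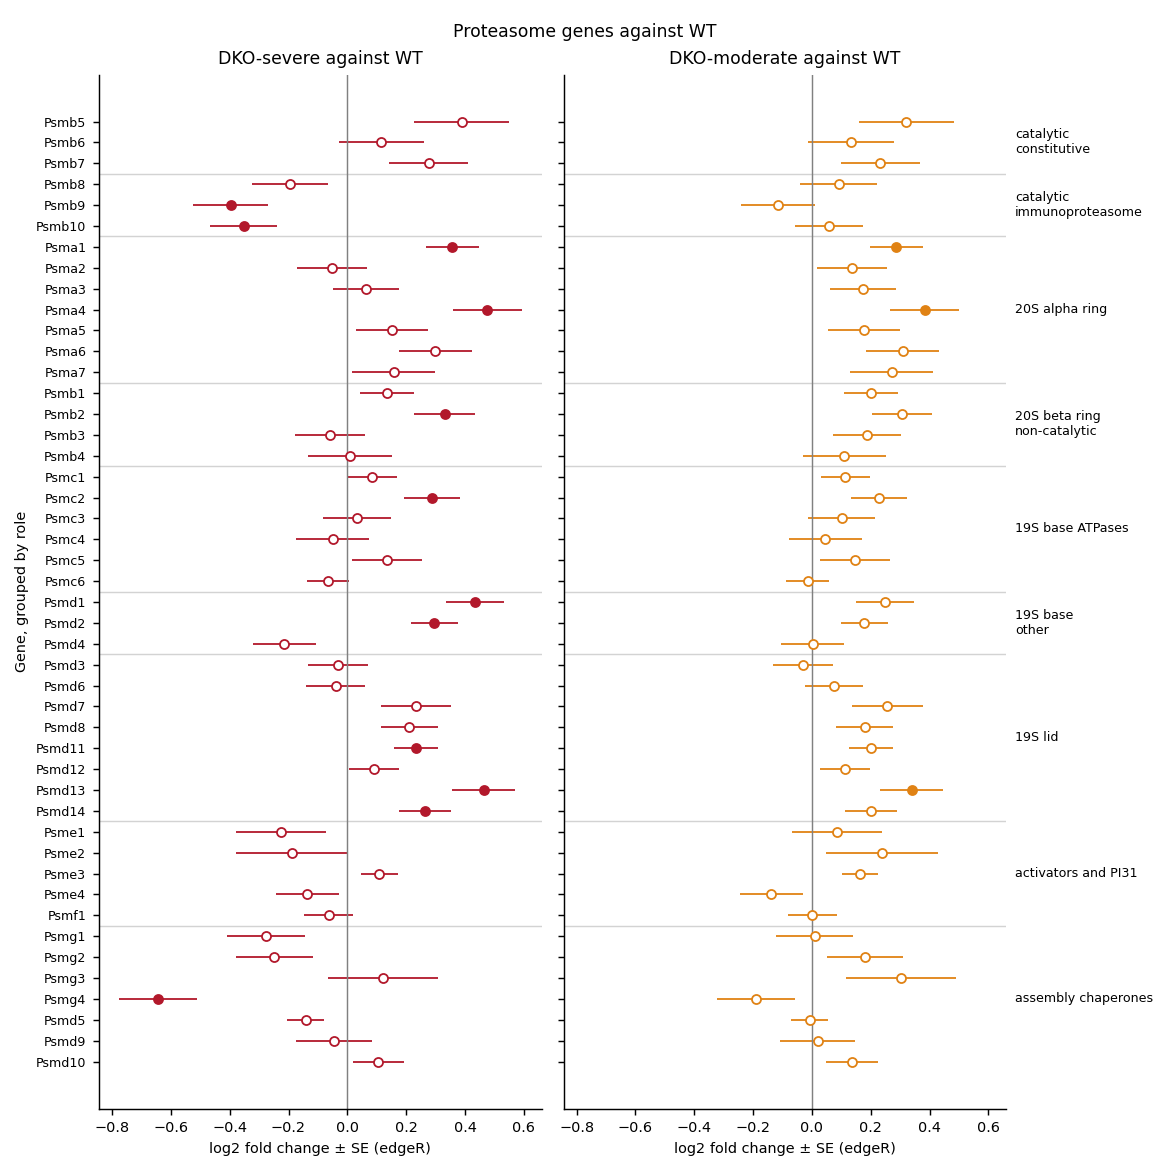
Log2 fold change (x axis, edgeR, bars show SE) of the 46 genes (y axis, grouped by role) in DKO-severe and DKO-moderate against WT, with filled points for genes past the threshold. In DKO-severe, 9 filled points lie right of 0 and 3 left of it, and in DKO-moderate 3 lie right of 0 and none left.

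Of the 6 catalytic subunits, 2 immunoproteasome genes fell in DKO-severe cells and the other 4 did not pass. The share of the 3 immunoproteasome genes that fell is 66.7%, against 25.9% of all genes tested. Psmb9, the immunoproteasome counterpart of Psmb6, was counted at 192, 179, 149, and 172 in the WT libraries, 149, 134, 150.3, and 205 in the DKO-moderate libraries, and 127, 121, 131, and 146 CPM in the DKO-severe libraries. All DKO-severe values lay below all WT values, and Psmb9 fell (log2 fold change -0.40, SE 0.13, adjusted p = 0.0203, edgeR). Psmb10, the counterpart of Psmb7, was counted at 184, 172, 155, and 164 in the WT libraries, 165, 149.7, 163, and 226 in the DKO-moderate libraries, and 132, 126, 134, and 138 CPM in the DKO-severe libraries. It fell as well (log2 fold change -0.35, SE 0.12, adjusted p = 0.022, edgeR), again without overlap between WT and DKO-severe. Both calls were lost when WT 1, DKO-severe 2, or DKO-severe 3 was left out (highest adjusted p 0.0618 and 0.0624), with log2 fold changes between -0.46 and -0.33 for Psmb9 and between -0.39 and -0.30 for Psmb10 over all libraries left out in turn. Psmb10 did not pass with DESeq2's size factors (adjusted p = 0.0584), and neither passed when scaled by library size alone (adjusted p = 0.192 for Psmb9 and 0.257 for Psmb10) or without WT 3, DKO-severe 1, and DKO-severe 2 (0.0962 and 0.114), while both passed when DKO-moderate 4 was left out as well (0.0159 and 0.0154). Psmb8, the counterpart of Psmb5 and the most abundant of the 6 per length of exon, was counted at 428, 382, 354, and 386 in the WT libraries, 379, 352, 376, and 545 in the DKO-moderate libraries, and 359, 302, 352, and 342 CPM in the DKO-severe libraries. Its WT and DKO-severe values overlapped, and it did not pass the threshold (log2 fold change -0.20, SE 0.13, adjusted p = 0.223, edgeR).

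None of the constitutive catalytic subunits passed in the reported fit, and all had positive log2 fold changes. Psmb5 was counted at 33.1, 32.7, 31.2, and 27.1 in the WT libraries, 33.5, 36.4, 30.2, and 54.9 in the DKO-moderate libraries, and 45.5, 38.0, 38.8, and 40.0 CPM in the DKO-severe libraries. All 4 DKO-severe libraries were above the WT libraries, with a log2 fold change of 0.39, SE 0.16, adjusted p = 0.0597 in edgeR, short of the threshold. It passed without DKO-moderate 4 (log2 fold change 0.42, adjusted p = 0.00305) or DKO-moderate 3 (adjusted p = 0.0445). Psmb5 also passed with DESeq2 (adjusted p = 0.016), limma voom (0.0105), DESeq2's size factors (0.0291), library size alone (0.016), and only both groups compared (0.00351). It did not pass with the neutrophil and B cell terms. Psmb7 was counted at 81.3, 80.4, 73.5, and 79.3 in the WT libraries, 81.4, 83.2, 80.4, and 125 in the DKO-moderate libraries, and 106, 83.3, 95.3, and 95.5 CPM in the DKO-severe libraries. Its ranges in WT and DKO-severe did not overlap either (log2 fold change 0.28, SE 0.13, adjusted p = 0.102, edgeR), and it passed without DKO-moderate 4 (0.31, adjusted p = 0.00337) or DKO-severe 2 (0.36, adjusted p = 0.0477). Psmb7 passed in the same 5 other settings as Psmb5 (adjusted p = 0.026, 0.015, 0.0386, 0.0182, and 0.0061, in the same order), and not with the neutrophil and B cell terms. Psmb6 was counted at 92.7, 94.5, 77.8, and 84.1 in the WT libraries, 82.1, 86.8, 83.1, and 131 in the DKO-moderate libraries, and 105, 81.8, 92.3, and 98.8 CPM in the DKO-severe libraries, with overlapping groups (log2 fold change 0.12, SE 0.14, adjusted p = 0.522, edgeR).

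**Figure D2:**
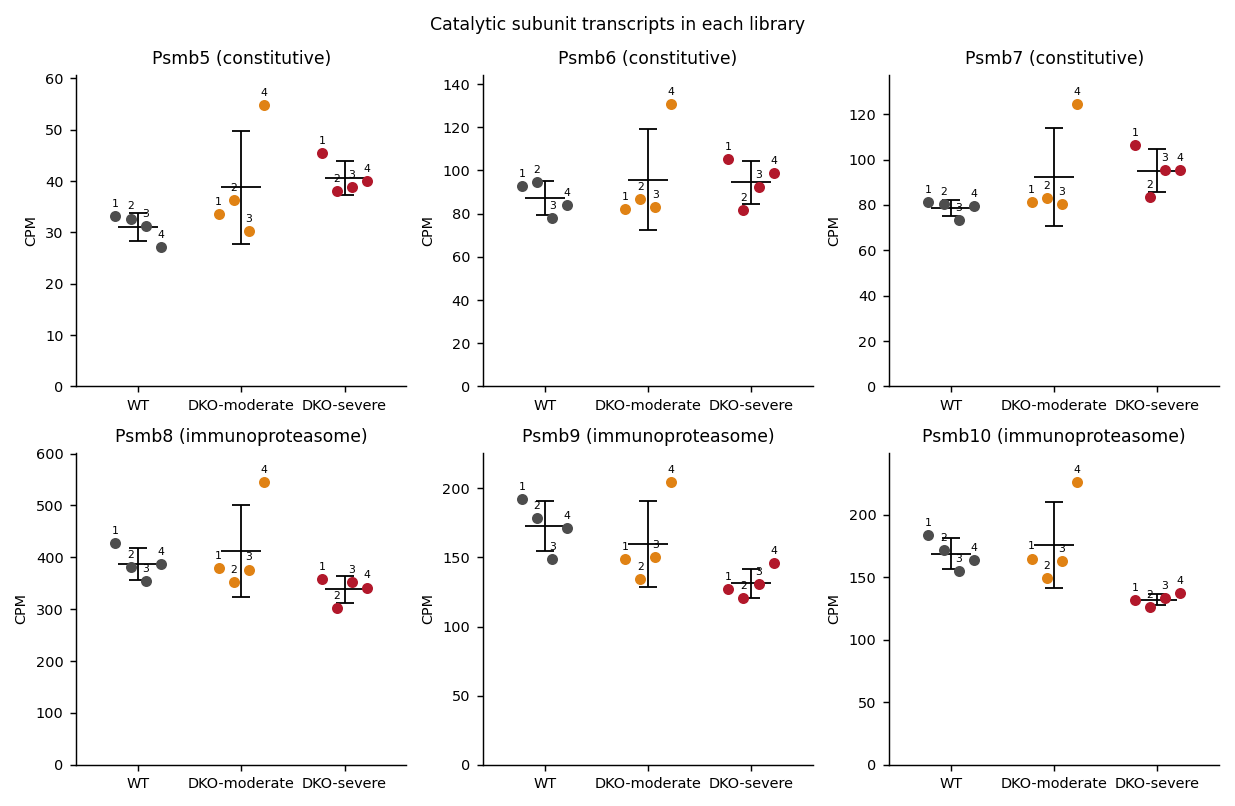
CPM (y axis, linear from 0) of the 6 catalytic subunits in each library, numbered by mouse, with the mean and SD of each group (n = 4). The DKO-severe points lie above WT for Psmb5 and Psmb7 and below WT for Psmb9 and Psmb10, and DKO-moderate 4 is the highest point in every panel.

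The balance within each catalytic pair was computed per library from counts per kilobase of exon, as the percentage that the immunoproteasome subunit makes of the pair. This ratio within a library does not depend on how libraries are scaled against each other, and it is given as a description, without a test. For Psmb8 with Psmb5 it was 87.7, 86.6, 86.2, and 88.7% in WT, 86.2, 84.2, 87.3, and 84.6% in DKO-moderate, and 81.3, 81.4, 83.3, and 82.5% in DKO-severe (means of 87.3% ± 1.13, 85.6% ± 1.44, and 82.2% ± 0.96, SD, n = 4). For Psmb9 with Psmb6 it was 55.0, 52.8, 53.0, and 54.6% in WT, 51.8, 47.7, 51.6, and 48.0% in DKO-moderate, and 41.6, 46.6, 45.6, and 46.6% in DKO-severe (means of 53.9% ± 1.12, 49.8% ± 2.21, and 45.1% ± 2.35, SD, n = 4). For Psmb10 with Psmb7 it was 66.7, 65.5, 65.1, and 64.7% in WT, 64.2, 61.4, 64.2, and 61.6% in DKO-moderate, and 52.3, 57.3, 55.3, and 56.0% in DKO-severe (means of 65.5% ± 0.88, 62.9% ± 1.56, and 55.2% ± 2.12, SD, n = 4). In all 3 pairs every DKO-severe library had a smaller immunoproteasome share than every WT library and every DKO-moderate library. As ratios of counts, not divided by length, the means in WT and DKO-severe were 12.6 ± 1.32 and 8.36 ± 0.56 for Psmb8 to Psmb5, 1.98 ± 0.09 and 1.40 ± 0.13 for Psmb9 to Psmb6, and 2.15 ± 0.08 and 1.40 ± 0.12 for Psmb10 to Psmb7 (SD, n = 4). DKO-moderate 4, high in all 6 genes, lay between the lowest and the highest of the other 3 DKO-moderate libraries in each pair.

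**Figure D3:**
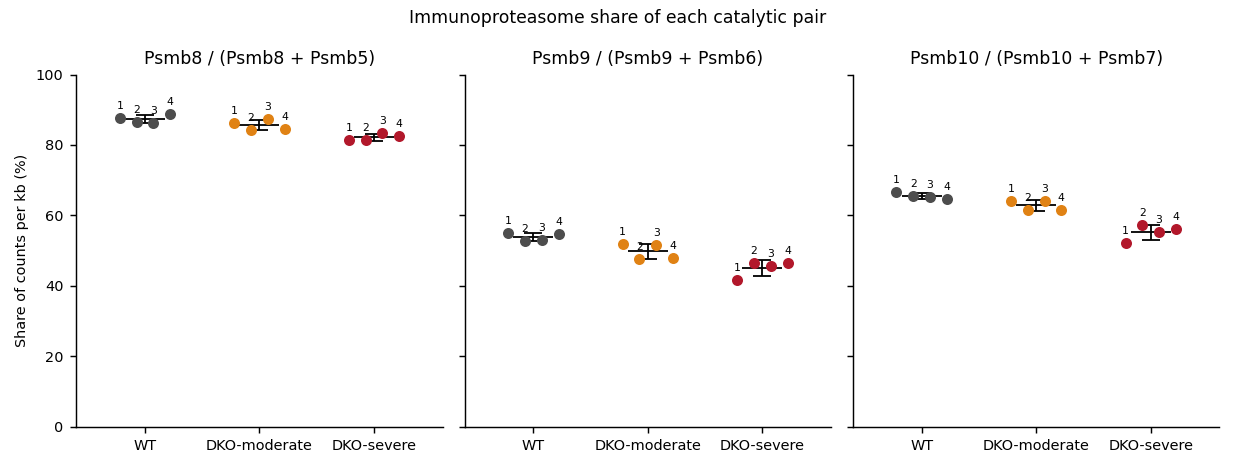
Share of the immunoproteasome subunit in each catalytic pair (y axis, % of counts per kilobase of exon), per library and with the mean and SD of each group (n = 4). The share falls from 65.5% in WT to 55.2% in DKO-severe for Psmb10 with Psmb7, and in all 3 panels the DKO-severe points lie below the WT points.

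Psme1 and Psme2, the subunits of the interferon-inducible cap, had the highest levels per length of all members in each group (305 ± 27.2 and 269 ± 28.9 CPM per kilobase in WT, SD, n = 4). Psme1 was counted at 378, 341, 305, and 333 in the WT libraries, 309.6, 296, 323, and 509 in the DKO-moderate libraries, and 301, 264, 302, and 292 CPM in the DKO-severe libraries. Every DKO-severe value lay below every WT value, yet the difference did not pass (log2 fold change -0.23, SE 0.15, adjusted p = 0.229, edgeR) unless DKO-moderate 4 was left out (log2 fold change -0.20, adjusted p = 0.0396). Psme2 was counted at 299, 271, 241, and 240.5 in the WT libraries, 258, 240.1, 261, and 482 in the DKO-moderate libraries, and 239, 213, 236, and 234 CPM in the DKO-severe libraries. It differed from WT in the same direction without passing (log2 fold change -0.19, SE 0.19, adjusted p = 0.417, edgeR). Psme3, which forms a nuclear cap, had 144 to 158 CPM in WT, 166 to 181 CPM in DKO-moderate, and 159.7 to 166 CPM in DKO-severe. Psme4, whose product PA200 caps proteasomes in the nucleus, ranged from 114 to 122 CPM in WT and from 100 to 116 CPM in DKO-severe. Psmf1, an inhibitor of the core, ranged from 47.6 to 51.5 CPM in WT and from 43.0 to 49.8 CPM in DKO-severe. In the reported fit, none of these 5 genes passed the threshold in any comparison. Psme3 lay above all WT values in every library of both DKO groups. It passed as higher in DKO-severe and DKO-moderate with DESeq2 (adjusted p = 0.000319 and 0.00338) and library size alone (0.00129 and 0.0133). Limma voom called Psme3 in DKO-moderate only (0.0381). Its DKO-severe call also appeared without DKO-moderate 4 (0.0378), with only both groups compared (0.0355), and when scaled by DESeq2's size factors (0.0183). Psme3 did not pass with the neutrophil and B cell terms.

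In the alpha ring, which gates entry to the core, 2 of 7 genes rose in DKO-severe and 5 did not pass. These are 28.6% of the ring's genes, against 26.6% of all genes tested that were higher. Psma4 was counted at 86.4, 89.7, 91.4, and 90.8 in the WT libraries, 104, 110.3, 102, and 151 in the DKO-moderate libraries, and 132, 113, 118, and 134 CPM in the DKO-severe libraries. WT lay below both DKO groups without overlap, and DKO-severe exceeded WT (log2 fold change 0.47, SE 0.12, adjusted p = 0.00502, edgeR), the largest rise among the members. Psma1 was counted at 97.0, 93.4, 94.2, and 94.2 in the WT libraries, 115, 108, 104, and 136 in the DKO-moderate libraries, and 131, 112, 116, and 126 CPM in the DKO-severe libraries. It rose with a smaller change (log2 fold change 0.36, SE 0.09, adjusted p = 0.00527, edgeR). Psma6 had 99.6 to 109 CPM in WT and 117 to 140.0 CPM in DKO-severe, separate ranges that did not pass in the reported fit (adjusted p = 0.061, edgeR). It passed in other settings, among them DESeq2 (adjusted p = 0.00991), limma voom (0.00486), and edgeR without DKO-moderate 4 (0.000944). It did not pass with the neutrophil and B cell terms. Psma2, Psma3, Psma5, and Psma7 overlapped between WT and DKO-severe. Of the 4 non-catalytic beta genes, only Psmb2 passed (25.0%, against 26.6% of all genes higher). It was counted at 59.2, 66.8, 61.2, and 66.8 in the WT libraries, 75.4, 70.3, 73.6, and 94.5 in the DKO-moderate libraries, and 88.0, 69.7, 78.2, and 83.5 CPM in the DKO-severe libraries, and DKO-severe was higher (log2 fold change 0.33, SE 0.10, adjusted p = 0.0178, edgeR). That call was lost without WT 1 or DKO-severe 1 (highest adjusted p 0.0529). Psmb1, Psmb3, and Psmb4 overlapped between these groups.

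In the base of the 19S particle, Psmd1 and Psmd2, the scaffold subunits that receive ubiquitin receptors and shuttle factors, rose together. Psmd1 was counted at 97.1, 97.0, 98.2, and 95.8 in the WT libraries, 114, 112, 97.6, and 137 in the DKO-moderate libraries, and 146, 119.7, 125, and 133 CPM in the DKO-severe libraries. The WT libraries were close together and all below the DKO-severe libraries (log2 fold change 0.43, SE 0.10, adjusted p = 0.00295, edgeR). Psmd2 was counted at 238, 227, 226, and 235 in the WT libraries, 256, 258, 253, and 279 in the DKO-moderate libraries, and 311, 245, 279, and 301 CPM in the DKO-severe libraries, with DKO-severe above WT (log2 fold change 0.30, SE 0.08, adjusted p = 0.00862, edgeR). Psmd4, a ubiquitin receptor of the same base, had lower values in all DKO-severe libraries (112 to 124 CPM) than in WT (133 to 142 CPM). It did not pass in the reported fit, and passed as lower with limma voom (adjusted p = 0.0245), only both groups compared (0.0314), and without DKO-moderate 4 (0.0134). Among the 6 ATPases, Psmc2 alone passed (16.7%, against 26.6% of all genes higher). It was counted at 94.9, 94.1, 94.0, and 92.2 in the WT libraries, 102, 101, 102, and 134 in the DKO-moderate libraries, and 121, 104, 114, and 119 CPM in the DKO-severe libraries, and it was higher in DKO-severe (log2 fold change 0.29, SE 0.09, adjusted p = 0.0224, edgeR) except when WT 4 or DKO-severe 1 was left out (highest adjusted p 0.059). The other 5 ATPase genes (Psmc1, Psmc3, Psmc4, Psmc5, and Psmc6) overlapped between WT and DKO-severe.

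The lid held 3 of the 9 genes that rose, which is 37.5% of its 8 genes, against 26.6% of all genes tested. Psmd13, a structural subunit, was counted at 83.1, 81.6, 85.3, and 81.9 in the WT libraries, 95.3, 101, 91.7, and 132 in the DKO-moderate libraries, and 128, 109, 109, and 112 CPM in the DKO-severe libraries. Its values in both DKO groups lay above all WT values, and DKO-severe was higher than WT (log2 fold change 0.46, SE 0.11, adjusted p = 0.00338, edgeR). Psmd14, the deubiquitinase that removes ubiquitin chains from substrates, was counted at 90.5, 81.4, 81.5, and 82.5 in the WT libraries, 95.6, 85.4, 93.6, and 112 in the DKO-moderate libraries, and 110.4, 95.0, 95.8, and 102 CPM in the DKO-severe libraries. It rose by less (log2 fold change 0.27, SE 0.09, adjusted p = 0.0236, edgeR), and the call was lost without WT 2, WT 3, WT 4, or DKO-severe 1 (highest adjusted p 0.0715). Psmd11, whose product joins lid to core and base, was counted at 72.4, 71.9, 69.3, and 69.2 in the WT libraries, 82.9, 78.3, 75.9, and 87.6 in the DKO-moderate libraries, and 90.3, 78.2, 75.5, and 88.1 CPM in the DKO-severe libraries (log2 fold change 0.23, SE 0.07, adjusted p = 0.0215, edgeR). Its call was lost without WT 4 or DKO-severe 1 (highest adjusted p 0.0666). Psmd7, the catalytically inactive partner of Psmd14, had 66.6 to 73.9 CPM in WT and 79.1 to 89.5 CPM in DKO-severe. These separate ranges did not pass in the reported fit (adjusted p = 0.12, edgeR). Psmd7 passed in other settings, among them DESeq2 (adjusted p = 0.03), limma voom (0.0198), and edgeR without DKO-moderate 4 (0.00203). It did not pass with the neutrophil and B cell terms. Psmd3, Psmd6, Psmd8, and Psmd12 overlapped between the groups.

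Of the 7 assembly chaperones, which build the core and the base but do not stay in the finished complex, 1 fell in DKO-severe and none rose. The share that fell is 14.3%, against 25.9% of all genes tested. Psmg4, which with Psmg3 guides formation of the alpha ring, was counted at 18.0, 21.2, 18.3, and 17.7 in the WT libraries, 16.1, 14.1, 15.5, and 20.2 in the DKO-moderate libraries, and 13.6, 10.6, 12.4, and 11.5 CPM in the DKO-severe libraries. All values of the DKO groups except that of DKO-moderate 4 lay below the WT values, and DKO-severe was lower than WT (log2 fold change -0.64, SE 0.13, adjusted p = 0.00164, edgeR), the largest change of any member in either direction. Psmg3 itself ranged from 10.8 to 14.0 CPM in WT and from 11.4 to 14.8 CPM in DKO-severe and did not pass. The other core chaperones, Psmg1 (24.4 to 29.8 CPM in WT, 18.6 to 25.3 CPM in DKO-severe) and Psmg2 (27.1 to 32.8 and 23.2 to 27.2 CPM), did not pass against WT in the reported fit. Limma voom called both lower (adjusted p = 0.0259 and 0.0383). Psmd5, a base chaperone, lay below WT in all DKO-severe libraries (61.0 to 69.5 CPM in WT, 56.4 to 58.5 CPM in DKO-severe) and did not pass. The base chaperones Psmd9 and Psmd10 overlapped between the groups.

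In DKO-moderate cells 3 of 46 genes passed against WT, all higher, which is 6.52% of the members against 17.1% of all genes tested (12.3% higher, 4.74% lower). They were Psma4 (log2 fold change 0.38, SE 0.12, adjusted p = 0.0422), Psma1 (log2 fold change 0.29, SE 0.09, adjusted p = 0.0447), and Psmd13 (log2 fold change 0.34, SE 0.11, adjusted p = 0.0479, all edgeR), which also passed in DKO-severe, a comparison that shares the WT libraries. None was lower, where 0 had an unadjusted p under 0.05 with a lower level and DESeq2 and limma voom each gave 0. The median log2 fold change was 0.16 over the members and 0 over all genes tested, and 40 of 46 genes had a positive sign. By CPM, all DKO-moderate libraries exceeded all WT libraries for 11 members and 0 showed the reverse, against 14.6% and 10.2% of all genes. DKO-moderate 4 was the highest of the 12 libraries for 39 of the 46 genes. The share of all genes in which it was the highest was not computed. Its CPM exceeded the mean of the other 3 DKO-moderate libraries in 43 genes, with a median ratio of 1.38, against 0.975 over the 8947 genes with a mean of at least 10 CPM. The ratio was highest for Psme2 (1.90), Psmg3 (1.73), Psmb5 (1.64), and Psme1 (1.64), and it was below 1 for Psme4 (0.718), Psmd5 (0.952), and Psme3 (0.971).

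**Figure D4:**
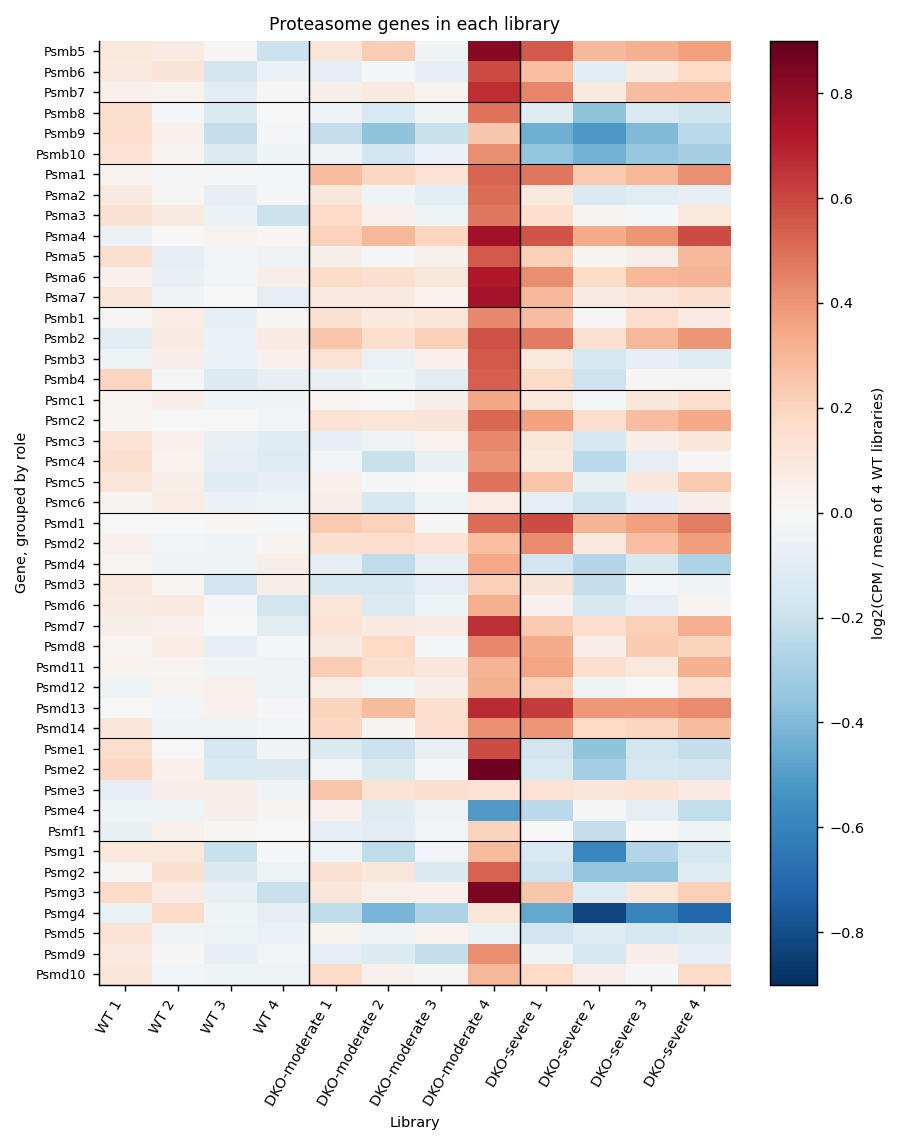
Log2 ratio of CPM to the mean of the 4 WT libraries (colour) for the 46 genes (y axis, grouped by role) in the 12 libraries (x axis). The column of DKO-moderate 4 is the highest for 39 of the 46 genes, and the rows of Psmb9, Psmb10, and Psmg4 are below WT in the 4 DKO-severe libraries.

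Without DKO-moderate 4, none of the 46 genes passed between DKO-moderate and WT, and the median of the members was 0.026, while 2370 of all genes passed (2734 with it). The log2 fold changes were then 0.23 for Psma4, 0.19 for Psma1, and 0.205 for Psmd13, still positive. The 3 calls were also lost without WT 1, WT 2, WT 3, WT 4, DKO-moderate 2, DKO-severe 3, or DKO-severe 4 (highest adjusted p 0.106, 0.107, and 0.111 for Psma1, Psma4, and Psmd13). Leaving out DKO-moderate 1 ended the call of Psma1, and leaving out DKO-severe 2 that of Psmd13. The spread of the members within a group, as the median SD of log2 CPM, was 0.0731 in WT, 0.113 in DKO-severe, 0.24 in DKO-moderate, and 0.0647 in DKO-moderate without library 4. In that library the proliferation list summed to 1004 CPM, against 676 to 760 CPM in the other 3, and the neutrophil and B cell lists to 36.1 and 24.0 CPM. Its naive T cell sum was 2824 CPM, close to the 2866 CPM of DKO-moderate 2 and below the 4161 and 4528 CPM of DKO-moderate 1 and 3, and its Y-linked sum was near 0, as in DKO-moderate 2. Whether these values bear on the members' high levels was not tested.

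Between the DKO groups, 3 of 46 genes were lower in DKO-severe, 6.52% against 20.1% of all genes tested (10.7% lower, 9.41% higher). None was higher in edgeR, with 0 at an unadjusted p under 0.05, while DESeq2 and limma voom each gave 2. By CPM, every DKO-severe library lay below every DKO-moderate library for 4 members (Psmb10, Psme2, Psmg4, and Psmd5) and above for 0, against 11.6% and 9.76% of all genes. Scaled by DESeq2's size factors or by library size alone, no member passed, and 59.6% and 64.9% of all calls were higher in DKO-severe, where 46.9% were with TMM. The genes were Psmb10 (log2 fold change -0.41, SE 0.12, adjusted p = 0.0268), Psmg4 (log2 fold change -0.45, SE 0.13, adjusted p = 0.0321), and Psmg2 (log2 fold change -0.43, SE 0.13, adjusted p = 0.0368, all edgeR). Psmg2, which pairs with Psmg1 in assembly of the alpha ring, was counted at 29.9, 32.8, 27.1, and 28.6 in the WT libraries, 32.6, 31.8, 27.0, and 42.7 in the DKO-moderate libraries, and 26, 23.2, 23.2, and 27.2 CPM in the DKO-severe libraries, and DKO-severe 4 overlapped DKO-moderate 3. Without DKO-moderate 4, 6 members were higher in DKO-severe and 1, Psmb10, was lower, with 3670 of all genes passing (3217 with it). The 6 were Psma4, Psmb5, Psmb7, Psmc2, Psmd1, and Psmd13, with log2 fold changes of 0.21 to 0.32. The call of Psmb10 was lost without any 1 of the 4 DKO-severe libraries, that of Psmg4 without DKO-moderate 1, 3, or 4 or DKO-severe 2, 3, or 4, and that of Psmg2 without DKO-moderate 1 or 4 or any DKO-severe library (highest adjusted p 0.0733, 0.0898, and 0.113).

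Genes that work with the proteasome but fall outside the symbol rule were counted from a list of 24, of which 23 were tested and Paaf1 was not analysed here. In DKO-severe against WT, 7 were higher, 6 lower, and 10 did not pass (median log2 fold change 0.05). This is 56.5% of the list, against 52.6% of all genes tested. With the neutrophil and B cell terms, none of the partners named here passed, with log2 fold changes of 0.56, SE 0.18, adjusted p = 0.0525 for Nfe2l1, 0.49, SE 0.16, adjusted p = 0.0534 for Vcp, 0.46, SE 0.17, adjusted p = 0.0935 for Txnl1, -0.49, SE 0.20, adjusted p = 0.12 for Nfe2l2, and -0.48, SE 0.23, adjusted p = 0.162 for Ubqln2 (edgeR). Nfe2l1, the transcription factor that drives proteasome genes when proteasome activity falls short, was counted at 86.3, 89.0, 108, and 102 in the WT libraries, 114, 116, 116, and 101 in the DKO-moderate libraries, and 155, 126, 156, and 132 CPM in the DKO-severe libraries. DKO-severe exceeded WT (log2 fold change 0.56, SE 0.10, adjusted p = 0.000533, edgeR), with no overlap against either other group. Vcp, the ATPase that extracts ubiquitinated proteins, rose from 373 ± 16.4 to 514 ± 28.0 CPM (SD, n = 4; log2 fold change 0.46, SE 0.08, adjusted p = 0.000633, edgeR), and Txnl1, a thioredoxin-like protein of the 19S particle, from 56.9 ± 3.91 to 75.9 ± 7.78 CPM (log2 fold change 0.41, SE 0.09, adjusted p = 0.00286, edgeR). Nfe2l2, the oxidative stress factor that also drives proteasome genes, fell, with 82.1, 73.5, 93.5, and 92.8 CPM in WT and 52.6, 56.3, 57.3, and 50.9 CPM in DKO-severe (log2 fold change -0.66, SE 0.12, adjusted p = 0.000652, edgeR). A lower level was also found for Ubqln2, a shuttle to the proteasome (log2 fold change -0.66, SE 0.13, adjusted p = 0.00122, edgeR). Adrm1, a ubiquitin receptor of the 19S particle, fell slightly (log2 fold change -0.24, SE 0.08, adjusted p = 0.0239, edgeR), a call lost without WT 1, WT 2, DKO-severe 2, or DKO-severe 3 (highest adjusted p 0.11), with DESeq2 (0.0826), with its size factors (0.104), with library size alone (0.591), with only both groups compared (0.0645), without WT 3, DKO-severe 1, and DKO-severe 2 (0.0543), and with the neutrophil and B cell terms (adjusted p = 0.121). Shfm1, the smallest lid subunit, had 59.8 to 73.8 CPM in WT and 64.1 to 78.3 CPM in DKO-severe and did not pass.

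Pomp, the maturation factor that completes the core and that was chosen after its values were seen, was counted at 79.2, 76.9, 74.5, and 72.8 in the WT libraries, 96.2, 97.4, 85.1, and 152 in the DKO-moderate libraries, and 113, 94.7, 96.5, and 98.1 CPM in the DKO-severe libraries. It was higher than in WT in DKO-severe (log2 fold change 0.41, SE 0.15, adjusted p = 0.037) and in DKO-moderate (log2 fold change 0.51, SE 0.15, adjusted p = 0.037, both edgeR), without overlap in either case. The call in DKO-severe was lost without any 1 of the WT libraries or DKO-severe 1, and that in DKO-moderate without any 1 of the WT libraries, DKO-moderate 2, or DKO-severe 3 (highest adjusted p 0.0979 and 0.0859). Neither call held with the neutrophil and B cell terms (log2 fold change 0.14, SE 0.26, adjusted p = 0.757 in DKO-severe and 0.43, SE 0.16, adjusted p = 0.102 in DKO-moderate, edgeR) or without WT 3, DKO-severe 1, and DKO-severe 2 (adjusted p = 0.201 and 0.0883). Pomp, like most members, was highest in DKO-moderate 4. In DKO-moderate against WT, 2 of the 23 partners passed (8.70%, against 17.1% of all genes), Pomp and Vcp, both higher. For Vcp (log2 fold change 0.30, adjusted p = 0.0254, edgeR) the call was lost without any 1 of the WT libraries (highest adjusted p 0.0722). It was also lost with only both groups compared (0.0557), the replicate number in the fit (0.0593), and the neutrophil and B cell terms (0.0675). The same held without WT 3, DKO-severe 1, and DKO-severe 2 (0.0838) and with DKO-moderate 4 left out as well (0.0759). Between the DKO groups 4 of the 23 partners passed (17.4%, against 20.1% of all genes), 1 higher and 3 lower in DKO-severe.

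Genes that handle proteasome products for MHC class I, together with the interferon factors that drive them, were counted from a list of 14. In DKO-severe against WT, 9 were lower, 3 higher, and 2 did not pass (median log2 fold change -0.53), which is 85.7% of the list against 52.6% of all genes tested. In DKO-moderate 1 of 14 passed (7.14%, against 17.1%). In DKO-severe against WT, Irf1 (log2 fold change -0.92, SE 0.23, adjusted p = 0.0187) and Canx (0.46, SE 0.13, adjusted p = 0.037, both edgeR) still passed with the neutrophil and B cell terms, and the other genes of the list named here did not. Their log2 fold changes were then -0.57, SE 0.18, adjusted p = 0.0536 for Tap2, -0.49, SE 0.18, adjusted p = 0.0851 for Tap1, -0.38, SE 0.24, adjusted p = 0.287 for Irf9, -0.29, SE 0.21, adjusted p = 0.353 for Stat2, -0.29, SE 0.34, adjusted p = 0.591 for Nlrc5, 0.43, SE 0.16, adjusted p = 0.0824 for Pdia3, and 0.43, SE 0.18, adjusted p = 0.131 for Calr (edgeR). Irf1, a transcription factor of the immunoproteasome genes, was counted at 390.0, 361, 397, and 363 in the WT libraries, 302, 214, 298, and 323 in the DKO-moderate libraries, and 152, 197, 176, and 176 CPM in the DKO-severe libraries. The 3 groups did not overlap, and Irf1 fell in DKO-severe (log2 fold change -1.11, SE 0.12, adjusted p = 2.7e-05) and in DKO-moderate (log2 fold change -0.41, SE 0.12, adjusted p = 0.0374, both edgeR), the latter call being lost without any 1 of the WT libraries or DKO-moderate 2 (highest adjusted p 0.0917), with library size alone (0.0656), and with the neutrophil and B cell terms (-0.35, SE 0.13, adjusted p = 0.095). Irf9 (log2 fold change -0.63, SE 0.13, adjusted p = 0.00155) and Stat2 (log2 fold change -0.43, SE 0.11, adjusted p = 0.00651), which act together downstream of type I interferon, fell as well, as did Nlrc5, the MHC class I transactivator (log2 fold change -0.63, SE 0.18, adjusted p = 0.0128, all edgeR). Stat2 and Nlrc5 did not pass with library size alone (adjusted p = 0.0748 and 0.054). The peptide transporter genes fell too, Tap2 from 401 ± 36.2 to 257 ± 13.0 CPM (log2 fold change -0.64, SE 0.10, adjusted p = 0.000188, edgeR) and Tap1, chosen after its values were seen, from 502 ± 47.5 to 324 ± 16.2 CPM (log2 fold change -0.63, SE 0.10, adjusted p = 0.000307, edgeR; SD, n = 4). The 3 that rose were chaperones of the endoplasmic reticulum that serve many other proteins, Pdia3 (log2 fold change 0.37, SE 0.09, adjusted p = 0.00413), Calr (log2 fold change 0.32, SE 0.11, adjusted p = 0.0283), and Canx (log2 fold change 0.21, SE 0.08, adjusted p = 0.0435, all edgeR). The calls of Calr and Canx were lost when single libraries were left out, WT 3, WT 4, or DKO-severe 4 for Calr and any WT library, DKO-moderate 3, DKO-severe 3, or DKO-severe 4 for Canx (highest adjusted p 0.0779 and 0.102), and that of Canx also with no filter (adjusted p = 0.0619). In bulk RNA, fewer cells of a type and less RNA per cell cannot be told apart.

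**Figure D5:**
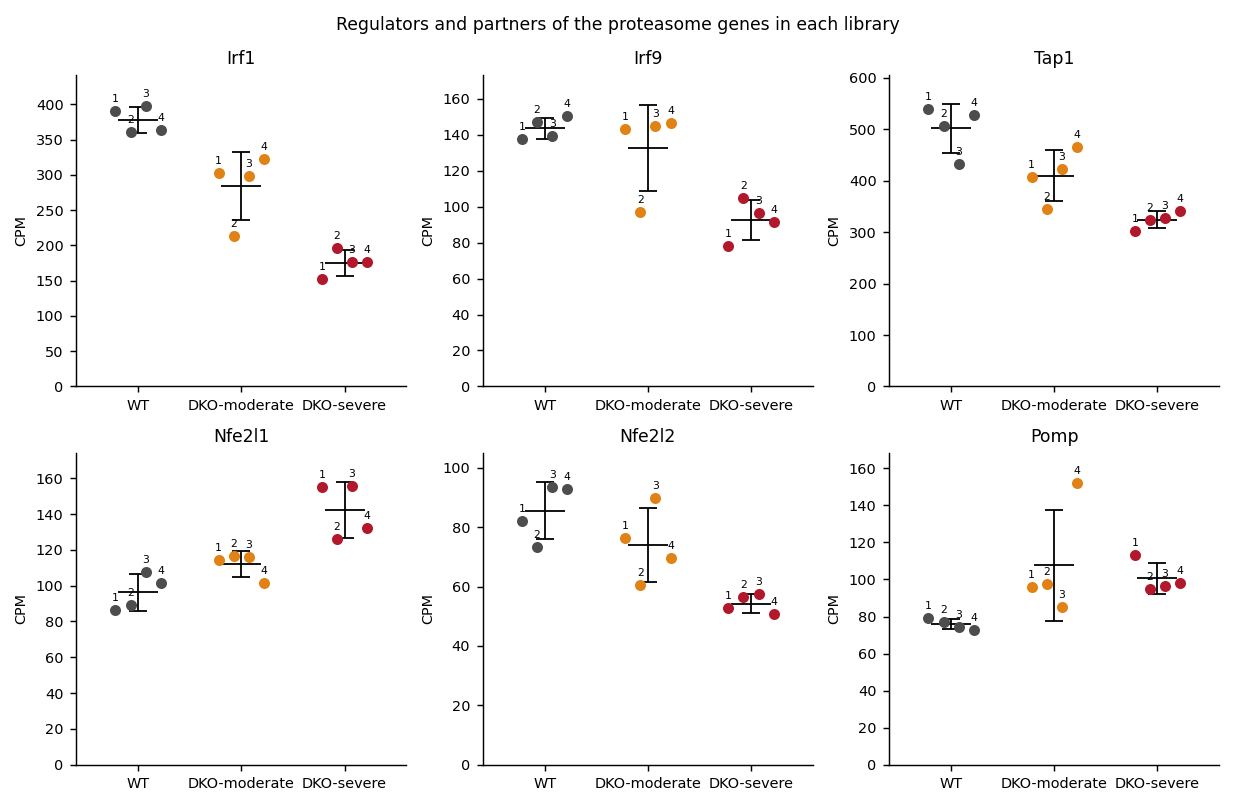
CPM (y axis, linear from 0) in each library of Irf1, Irf9, Tap1, Nfe2l1, Nfe2l2, and Pomp, with the mean and SD of each group (n = 4). Irf1, Irf9, Tap1, and Nfe2l2 are lower in all DKO-severe libraries than in all WT libraries, and Nfe2l1 and Pomp are higher.

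Promoter windows of 39 of the 46 genes were read from RefSeq (GRCm38.p6), each from 250 bases before to 50 bases after the annotated start, and searched on both strands for motifs chosen after the values were seen. The ETS motif CCGGAAG was found in 14 of 39 windows (35.9%), against 9.93% of 27025 genes with a window. The motif of nuclear respiratory factor 1 (NRF1), GCGCA followed by 1 base of any kind and GCGC, was found in 7 (17.9%, against 5.19%). This NRF1 is not the product of Nfe2l1. The 27025 genes were not limited to the 16035 tested, so they include genes with few or no reads here, and the shares among expressed genes were not computed. The interferon response motif, GAAA, 2 bases of any kind, and GAAA again, was found in 5 (12.8%, against 3.99%), namely Psmb3, Psmd4, Psme1, Psmg4, and Psmd9. The gamma-activated site motif TTCNNNGAA was found in Psmb8, Psmd2, and Psmg1 (7.69%, against 9.55%), the antioxidant response motif TGACNNNGC in 6 genes including Psmb5 and Psmb6 (15.4%, against 14.0%), and CCAAT in 13 (33.3%, against 41.1%). A match is only a run of letters and does not show that a factor binds. The following 4 windows are written 5′ to 3′ on the strand of the gene and belong to the gene with the largest rise (Psma4), a gene higher in both DKO groups (Psmd13), and 2 of the genes that fell (Psmg4 and Psmb9), with 1 motif of each in capitals, in order the NRF1, ETS, interferon response, and CCAAT motif, the last as its reverse complement.
Psma4: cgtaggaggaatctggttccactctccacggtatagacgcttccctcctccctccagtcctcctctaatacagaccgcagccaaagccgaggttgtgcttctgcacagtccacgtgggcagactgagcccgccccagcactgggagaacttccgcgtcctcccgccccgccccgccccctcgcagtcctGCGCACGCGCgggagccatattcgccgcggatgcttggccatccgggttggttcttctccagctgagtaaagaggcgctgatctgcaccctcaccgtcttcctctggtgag
Psmd13: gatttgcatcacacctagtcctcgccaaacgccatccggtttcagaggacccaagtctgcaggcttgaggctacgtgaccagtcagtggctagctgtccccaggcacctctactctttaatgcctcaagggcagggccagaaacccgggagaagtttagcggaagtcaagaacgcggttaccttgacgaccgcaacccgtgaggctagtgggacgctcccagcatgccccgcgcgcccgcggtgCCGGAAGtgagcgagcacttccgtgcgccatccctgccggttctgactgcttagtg
Psmg4: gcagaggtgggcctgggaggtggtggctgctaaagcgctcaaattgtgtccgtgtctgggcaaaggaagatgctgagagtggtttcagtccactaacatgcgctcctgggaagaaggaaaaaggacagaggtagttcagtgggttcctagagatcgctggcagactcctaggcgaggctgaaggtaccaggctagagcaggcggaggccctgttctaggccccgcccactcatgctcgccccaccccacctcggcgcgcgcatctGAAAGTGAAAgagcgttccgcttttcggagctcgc
Psmb9: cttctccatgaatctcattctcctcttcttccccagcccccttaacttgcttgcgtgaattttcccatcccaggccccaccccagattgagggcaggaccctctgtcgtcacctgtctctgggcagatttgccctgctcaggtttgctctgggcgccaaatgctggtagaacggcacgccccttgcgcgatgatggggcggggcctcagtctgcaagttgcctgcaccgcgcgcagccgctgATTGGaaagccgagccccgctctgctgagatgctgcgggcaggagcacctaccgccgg
The windows lie at chr9:54950609-54950908, plus strand (Psma4), chr7:140882144-140882443, plus strand (Psmd13), chr13:34162714-34163013, plus strand (Psmg4), and chr17:34187281-34187580, minus strand (Psmb9). The capitals begin 61, 6, and 8 bases before the start in Psma4, Psmd13, and Psmb9, and at base 16 of the transcript in Psmg4. The window of Psmb9 shares 275 of its 300 bases with that of Tap1, which is transcribed in the opposite direction and was also lower in DKO-severe. Psmb8 lies nearby in the MHC region of the same chromosome.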

How the data were processed

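Libraries were prepared by the authors with a directional kit, sequenced as read pairs, aligned to mm10 with STAR 2.7.11 keeping reads with a single position, and counted per gene with HTSeq in reverse-stranded mode. The deposited values are raw read counts per gene, and the annotation behind them is not given in the sources used here. Reads from near-identical copies are missing from the counts. Unassigned records, 18.5% to 23.7% per library, were left out. Genes reaching 10 reads in the sum of any 1 group were kept (16035 of 26608), scaled by TMM, and tested with edgeR 4.0.16 in R 4.3.3 (quasi-likelihood F test, the 3 groups in 1 fit). SE was derived from the log2 fold change and F (absolute value over the root of F). Exon lengths were taken from GENCODE M21 basic (GRCm38) and promoters from RefSeq. DESeq2 1.42.0, limma 3.58.1, other scalings and filters, and each library left out were alternatives, and the fits without WT 3, DKO-severe 1, and DKO-severe 2, with or without DKO-moderate 4, were chosen after seeing the data. Members, gene lists, and motifs were chosen with earlier results of these data known. All members were named. From the lists of partners and MHC class I genes, the 3 largest rises and 3 largest falls past the threshold in DKO-severe against WT, transcription factors, and subunits outside the rule were named, except for genes that are not reported here. No library was a copy of another of its group (chi-square per degree of freedom of 21.6 or more). On simulated counts for DKO-severe against WT, edgeR recovered 68.5% of 200 genes changed by a log2 fold change of 1 among 11859, with 3.52% false calls. In the data 8428 genes passed in this comparison, and the members lay between -0.64 and 0.475. The simulation therefore does not give the recovery of changes as small as those of the members. Python 3.11.15, pandas 2.3.3, and matplotlib 3.10.9 served for summaries and figures.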

Additional observations from a re-analysis of the deposited data

Results flagged for a closer look

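Within each group of 4 libraries, a library was noted when its gap to the nearest other library took a larger part of the range of the group than Dixon's critical value, a limit that chance passes in about 1 of 20 groups. Among 138 combinations of gene and group, 23 did so, and 18 of them were DKO-moderate 4, each time the highest of its group. How often this library would be noted over all genes was not computed. Between whole libraries it also differed most within its group. Its chi-square per degree of freedom was 104 to 141, against 26.2 to 96.4 between the other 3. In that library the core genes Psmb6 (131 CPM, others 82.1 to 86.8), Psmb7 (125 CPM, others 80.4 to 83.2), Psmb8 (545 CPM, others 352 to 379), Psma4 (151 CPM, others 102 to 110.3), Psma5 (114 CPM, others 76.9 to 80.8), and Psma6 (172 CPM, others 112 to 118) stood apart from the other 3. So did Psma7 (208 CPM, others 127 to 132), Psmb1 (242 CPM, others 190.0 to 197), Psmb4 (266 CPM, others 170.3 to 178), Psmc1 (143 CPM, others 112 to 116), Psmc2 (134 CPM, others 101 to 102), and Psmc5 (122 CPM, others 86 to 89.2). The remaining genes were Psmd3 (145 CPM, others 113 to 118), Psmd7 (113 CPM, others 75.1 to 77.5), Psme1 (509 CPM, others 296 to 323), Psme2 (482 CPM, others 240.1 to 261), Psmg3 (22.4 CPM, others 12.7 to 13.3), and Psmd9 (33.0 CPM, others 21.3 to 23.2). The cause was not tested. The fits with and without this library are given with the results above.

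The other 5 were single genes. DKO-severe 1 was highest for Psmd13 (128 CPM, others 109 to 112), and DKO-moderate 1 for Psme3 (181 CPM, others 166 to 168). WT 1 was highest for Psmd14 (90.5 CPM, others 81.4 to 82.5), Psmd5 (69.5 CPM, others 61.0 to 62.2), and Psmd10 (34.0 CPM, others 30.5 to 30.9).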

How the results depend on the processing

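With 4 libraries a group, many changes sat near the threshold, and single libraries decided several calls. Of 138 member values (46 genes, 3 comparisons), 61 changed sign under at least 1 alternative, each with a reported log2 fold change of 0.239 or less in size, and 0 of the 18 called values did. Psmb6 in DKO-severe against WT turned to -0.035 with terms for the neutrophil and B cell lists. Shfm1 turned to -0.21 with those terms, to -0.02 without WT 3, DKO-severe 1, and DKO-severe 2, and ranged from -0.009 to 0.121 with single libraries left out, below 0 without WT 4 and without DKO-severe 1.

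Numbers of members higher and lower in DKO-severe against WT (9 and 3) were 16 and 3 with DESeq2, 14 and 6 with limma voom, 15 and 2 with DESeq2's size factors, 21 and 1 with library size alone, 17 and 4 with only the groups compared in the fit, 0 and 0 with the neutrophil and B cell terms, and 5 and 1 at an adjusted p under 0.01. They were 5 and 1 without WT 3, DKO-severe 1, and DKO-severe 2, and 14 and 3 with DKO-moderate 4 left out as well. With single libraries left out, the number higher ranged from 5 to 17 (17 without DKO-moderate 4 and 5 without DKO-severe 1) and the number lower from 1 to 5 (1 without WT 1, 5 without DKO-moderate 4, 1 without DKO-severe 2, and 1 without DKO-severe 3). The members that DESeq2 added as higher were Psma6, Psmb1, Psmb5, Psmb7, Psmd7, Psmd8, and Psme3. Limma voom added Psma6, Psmb5, Psmb7, Psmd7, and Psmd8 as higher and Psmd4, Psmg1, and Psmg2 as lower. All genes passing (8428) numbered 2970 with the neutrophil and B cell terms and 7253 to 9006 with single libraries left out.

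In DKO-moderate against WT, the members higher (3) were 6 with DESeq2, 7 with library size alone, 1 with no filter, and 0 with only the groups compared, with the neutrophil and B cell terms, with a term for Y-linked transcripts, at 0.01, and in both fits without WT 3, DKO-severe 1, and DKO-severe 2. The fit that also left out DKO-moderate 4 had 1 member lower, Psmb9, where every other fit had 0. With single libraries left out, the number higher ranged from 0 to 4, with 0 without WT 1, WT 2, WT 3, WT 4, DKO-moderate 2, DKO-moderate 4, DKO-severe 3, and DKO-severe 4. All genes passing (2734) were 1142 at 0.01 and 1616 to 2920 with single libraries left out (1616 without WT 1 and 1707 without WT 2).

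In DKO-severe against DKO-moderate, the members higher (0) were 2 with DESeq2 and with limma voom, 3 without WT 3, DKO-severe 1, DKO-severe 2, and DKO-moderate 4, and 0 to 6 with single libraries left out (6 without DKO-moderate 4). Members lower (3) were 0 with DESeq2's size factors, with library size alone, with only the groups compared, with the neutrophil and B cell terms, at 0.01, and in both fits without WT 3, DKO-severe 1, and DKO-severe 2. They were 1 with the Y-linked term and 0 to 3 with single libraries left out (1 without DKO-moderate 1, 1 without DKO-moderate 4, 1 without DKO-severe 1, 0 without DKO-severe 2, 0 without DKO-severe 3, and 0 without DKO-severe 4). All genes passing (3217) were 6126 with limma voom, 203 with the neutrophil and B cell terms, 928 at 0.01, 2055 without WT 3, DKO-severe 1, and DKO-severe 2, and 1646 to 3670 with single libraries left out (1646 without DKO-moderate 1, 1815 without DKO-moderate 3, 1971 without DKO-severe 1, 1997 without DKO-severe 3, and 1989 without DKO-severe 4).

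From counts not divided by exon length, the immunoproteasome share in WT, DKO-moderate, and DKO-severe was 92.57%, 91.48%, and 89.28% for Psmb8 with Psmb5, 66.42%, 62.67%, and 58.17% for Psmb9 with Psmb6, and 68.21%, 65.68%, and 58.22% for Psmb10 with Psmb7, the same order of groups. With single libraries left out, the means divided by exon length stayed within 1 SD of those reported. In groups this small, leaving out a single library cannot move the mean by as much as 1 SD. This comparison therefore does not test how far the shares depend on single libraries.

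The labels do not say whether the replicate numbers pair the samples. Deviations from the group means correlated between same-numbered libraries at -0.272 to 0.208 (median -0.0345), with 2 of 12 correlations over 0.1. Between libraries with different numbers they correlated at -0.318 to 0.303 (median 0.013), with 12 of 36 over 0.1. Correlations this weak show no pairing, but they cannot exclude it. With the number as a replicate block, members passing were 9 higher and 3 lower in DKO-severe against WT, 1 higher in DKO-moderate against WT, and 2 lower in DKO-severe against DKO-moderate. Why these settings changed the counts was not tested, except that a stricter threshold leaves fewer calls by construction.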

Other observations

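Levels per length of exon in WT cells, given as group means, differed between roles of the proteasome genes. The caps and their inhibitor had the widest range, from 12.5 (Psmf1) to 305 CPM per kilobase (Psme1). Immunoproteasome catalytic genes ranged from 128 (Psmb9) to 238 CPM per kilobase (Psmb8), above their constitutive counterparts in each pair (Psmb5 34.5 ± 3.04, Psmb6 109 ± 9.72, and Psmb7 67.8 ± 3.04 CPM per kilobase, SD, n = 4). Alpha ring genes ranged from 44.1 (Psma3) to 105 CPM per kilobase (Psma7) and the non-catalytic beta genes from 52.1 (Psmb1) to 155 CPM per kilobase (Psmb3). ATPases ranged from 36.9 (Psmc6) to 74.1 CPM per kilobase (Psmc3), and lid genes from 23.8 (Psmd11) to 58.4 CPM per kilobase (Psmd8). Assembly chaperones, which are not part of the finished complex, ranged from 9.51 (Psmd9) to 33.9 CPM per kilobase (Psmg4). In DKO-severe cells Psmb6 (118 ± 12.5 CPM per kilobase) had a higher mean level than Psmb9 (97.1 ± 7.84), the reverse of WT (109 ± 9.72 and 128 ± 13.4). The exon lengths are those of all basic transcripts of a gene together, so levels compared between genes carry the error of that choice.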
